A study of Mus musculus with 4 samples.

Results

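Cadherins, integrins, laminins and claudins carry the contacts of a cell with its neighbours and with the basement membrane, and their mRNA levels were compared in mouse embryonic stem cells with and without Exosc3. Members were all rows of the deposited expression table whose symbol begins with Cdh, Itga, Itgb, Lama, Lamb, Lamc or Cldn followed by a digit. The rule found 70 genes among the 22883 rows (22394 symbols) of the table, each with 1 row: 21 cadherins, 16 integrin subunits, 10 laminin chains, 21 claudins and 2 genes that match the spelling only. Those 2, Itgb3bp and Itgb1bp2, encode proteins that bind an integrin β tail, and are counted apart. Of the 70, 26 had a mean of at least 0.5 FPKM (fragments per kilobase of transcript, scaled to library size) and were tested. Of the other 44, 8 were listed at 0 in all 4 libraries.

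Classical cadherins hold neighbouring cells together by binding the same cadherin on the next cell, and hand the load to actin through catenins. Claudins are membrane proteins with 4 spans in the tight junction, where the mixture of claudins sets which ions pass between cells. Integrins are pairs of an α and a β subunit that bind the extracellular matrix, and laminins are α, β and γ chain trimers that polymerise into the basement membrane. Mouse embryonic stem cells grow as E-cadherin-joined epithelial-like colonies and secrete laminin of the α1, β1, γ1 kind.

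Total RNA came from clones of the V6.5 mouse embryonic stem cell line with a conditional knockout of Exosc3, which encodes part of the core of the RNA exosome, the complex that degrades and trims RNA from its 3′ end. All clones were Exosc3 CKO and grew without feeder cells. The Exosc3-present group (2 libraries) kept 0.1 µg/ml doxycycline for the 3 days of the experiment, and the Exosc3-depleted group (2 libraries) had it removed for the same 3 days. Doxycycline and Exosc3 changed together, so their effects cannot be told apart. No label names separate cultures or says which clone gave which library, so p-values measure the spread between these libraries, which may be technical.

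Exosc3 itself was 23.7 ± 0.697 FPKM (SD, n = 2) with doxycycline and 0.663 ± 0.0401 (n = 2) without, 35.8-fold lower (log2 difference -4.38, SE 0.18, limma adjusted p = 0.000129), which fits the labels. Depth, recovered from the spacing of the FPKM values, was 30253913 and 28610794 fragments in listed rows for Exosc3-present 1 and 2, and 16151244 and 18483528 for Exosc3-depleted 1 and 2. The totals that FPKM was scaled to were larger, at 60851774 and 55233386 for Exosc3-present 1 and 2, and 38095698 and 41968325 for Exosc3-depleted 1 and 2. Listed rows held a smaller part of that total in both Exosc3-depleted libraries, and what this does to the FPKM differences was not tested. By those totals, 1 fragment on a transcript of 1 kb was worth 0.0164 to 0.0262 FPKM. Embryonic stem cell markers (6 of 8 with a row) summed to 3070 and 3080 FPKM in the Exosc3-present libraries, and to 1950 and 1290 in the Exosc3-depleted ones, and 4 of the 6 fell. Dppa5a made up most of each sum (means 2220 FPKM with Exosc3 and 1090 without). Its call was lost with scaling by median of ratios or without the 50 highest rows (limma adjusted p = 0.0736 and 0.0706). Tdgf1, Zfp42 and Esrrb stayed called in every alternative. Pou5f1 (452 to 350 FPKM) and Utf1 (81.6 to 70.4) lay lower but did not pass (limma adjusted p = 0.167 and 0.339). Trophectoderm markers (7 of 8 with a row) summed to 22.3 and 24.4 FPKM with Exosc3 and to 120 and 88.9 without. The keratins Krt8 and Krt18 made up most of each sum (means 10.5 and 11.9 FPKM with Exosc3, 54.2 and 48.5 without). Of 4 tested, 3 rose (Krt8, Krt18 and Hand1) and 1 fell (Eomes, from 0.811 to 0.379 FPKM). Hand1 (0.0412 FPKM with Exosc3) and Eomes reached a mean of 0.5 FPKM only through the group where they were higher. Of those not tested, Cdx2 and Gata3 lay higher and Elf5 lower without Exosc3, on at most 20 fragments in a library. The 8 primitive or parietal endoderm markers summed to 4.18 and 4.27 against 6.79 and 7.22 FPKM, with 4 of 6 tested higher and 1 lower. Of the higher ones Gata6, Sox17 and Pdgfra, at 0.456, 0.229 and 0.284 FPKM with Exosc3, reached a mean of 0.5 FPKM only through their Exosc3-depleted values. They had to be higher there to be tested. With that mean taken over the Exosc3-present libraries, 3 markers were tested, 1 higher and 1 lower. Fibroblast markers summed to at most 3.11 FPKM in any library, and Dcn, Lum and Postn were at 0. Of 3 tested, Thy1 fell from 2.24 to 0.179 FPKM. Col1a1 and Fbn1 (0.438 and 0.325 FPKM with Exosc3) did not pass, although both Exosc3-depleted values of each lay above both Exosc3-present ones. All 3 reached a mean of 0.5 FPKM only through the group where they were higher, so that separation is no support. With that mean taken over the Exosc3-present libraries, 1 fibroblast marker (Thy1) was tested, and it was lower. Endothelial and blood markers (7 of 8 with a row) summed to 18.7 and 20.9 against 9.79 and 13.4 FPKM, with Hbb-b1 at 0. Pecam1 made up most of each sum (means 17.5 FPKM with Exosc3 and 9.51 without). Of 3 tested, Pecam1 and Vwf (1.87 to 0.169 FPKM) fell and Tek (0.385 to 1.68) rose. Vwf and Tek reached a mean of 0.5 FPKM only through the group where they were higher. In bulk RNA, a change in the share of cells of a kind and a change in RNA per cell cannot be told apart, and the part of these marker differences in the results that follow was not tested.

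The Exosc3-depleted libraries differed from each other along base composition and transcript length. Over the 7970 tested rows with a GC value (85.4% of 9336), the log2 difference of Exosc3-depleted 2 minus 1 fell from a median of 0.53 in the fifth of rows with the lowest GC to -0.23 in the fifth with the highest, whereas the same medians in the Exosc3-present pair were 0.11 and 0.01. Over the 26 tested members, Spearman's rho between GC and that difference was -0.66 (all rows: -0.69), a description across genes that share 4 libraries. Between transcript length and the same difference, rho was 0.49 over the members and 0.46 over all 9336 tested rows. In the Exosc3-present pair, rho with length was 0.49 and 0.28. The parts of GC and length were not separated, and no length trend was removed. Apart from Itgb3bp (38% GC, -0.19), the members lowest in GC had wide gaps: Cldn12 (44.5% GC) was 1.01 higher on the log2 scale in Exosc3-depleted 2 than in 1, Itgb1 (44.8%) 0.95, Itga6 (48.9%) 1.04, Cdh2 (49.5%) 0.51 and Cdh1 (50.7%) 0.79. Lamc1 (53.0%) and Lama1 (53.8%) differed by 0.69 and 0.66. In Cldn12, Itgb1, Itga6, Cdh1, Lamc1 and Lama1 the gap within the Exosc3-depleted pair exceeded the difference between groups, and their results are given with Exosc3-depleted libraries left out; without either Exosc3-present library none of the 6 passed in limma.

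**Figure D1:**
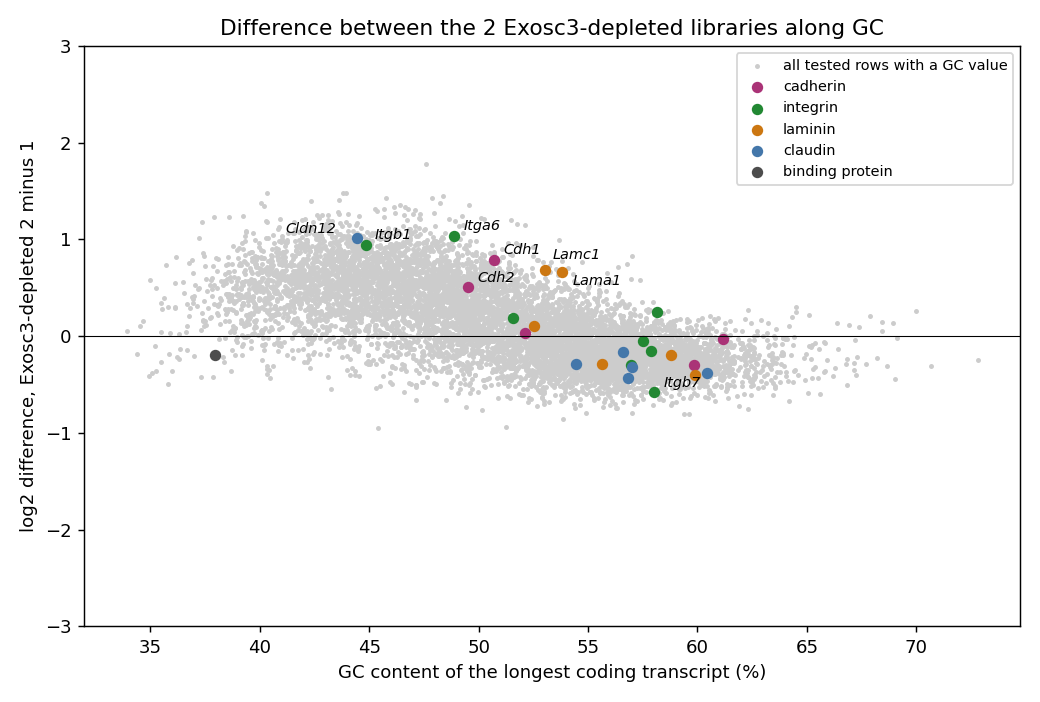
Log2 difference between the 2 Exosc3-depleted libraries (replicate 2 minus 1, on the FPKM + 0.5 scale) against the GC content of the longest coding transcript in percent, for 7970 tested rows (grey) and the 26 tested members (coloured by family). Members of low GC such as Itgb1 and Itga6 lie near 1, and Itgb7, at 58% GC, lies lowest at -0.58.

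Across the 26 tested members, 7 were higher and 5 lower in the Exosc3-depleted libraries at an adjusted p under 0.05 (limma on log2(FPKM + 0.5), Benjamini-Hochberg over all 9336 tested rows), and 14 did not pass. Among all tested rows 42.7% were called in either direction, 12.6% higher and 30.1% lower, so the share of members called was close to that of all rows. The members' median log2 difference was 0.09, against -0.27 for the median row, which is 0.36 above it. Both Exosc3-depleted values lay above both Exosc3-present values in 10 of the 26 members (22.2% of all tested rows) and below them in 7 (50.9% of all tested rows). The higher members were Cdh2, Cdh3, Itga3, Lama5, Lamb1, Lamb3 and Cldn6, and the lower ones Itga5, Itga9, Itgb7, Cldn7 and Cldn9. Under 3 other scalings of the libraries, which put the median row at 0.01 (median of ratios), -0.05 (quantile) and 0.03 (without the 50 highest rows), 9 members were higher and 1, Itga9, lower.

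**Figure D2:**
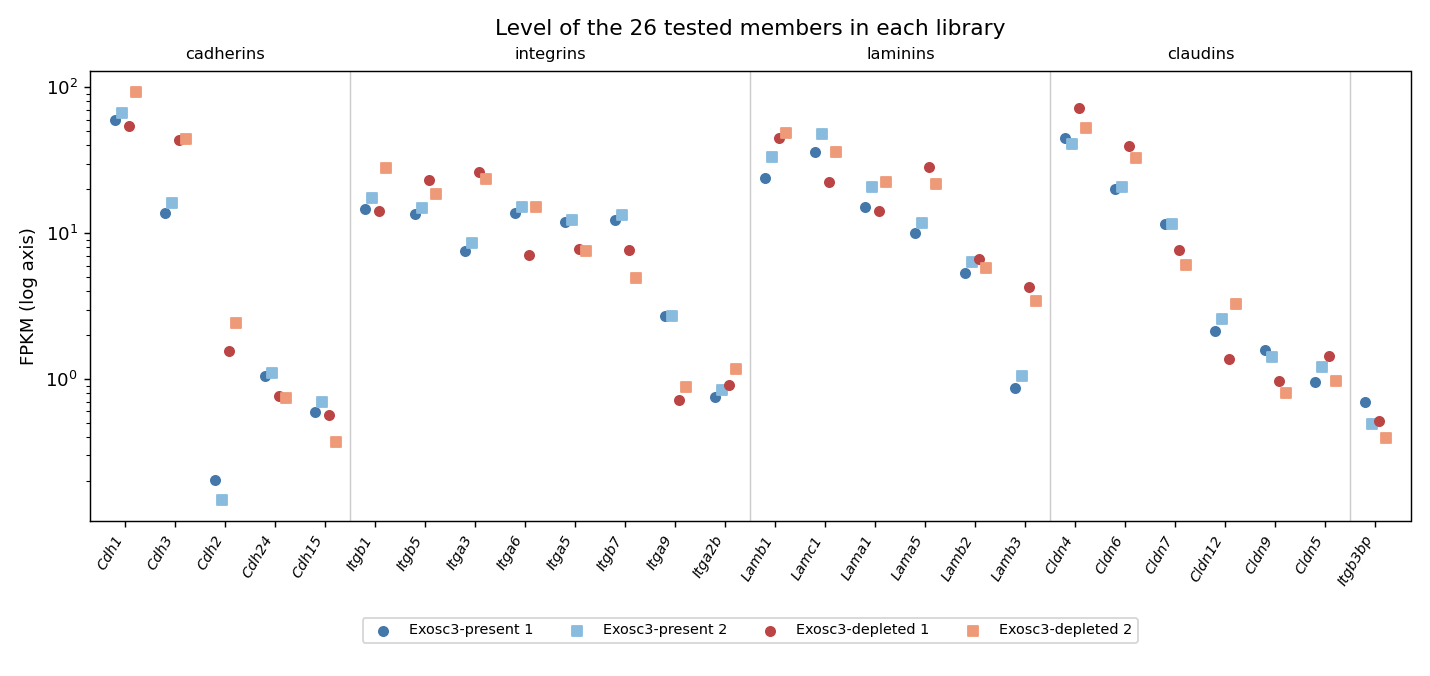
FPKM (log axis) of the 26 tested members in each of the 4 libraries, grouped by family and ordered by mean level, with circles for replicate 1 and squares for replicate 2. Cdh3, Cdh2, Itga3 and Lamb3 show both Exosc3-depleted points well above both Exosc3-present points, while Cdh1, Itgb1 and Itga6 show Exosc3-depleted points on both sides or level with them.

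**Figure D3:**
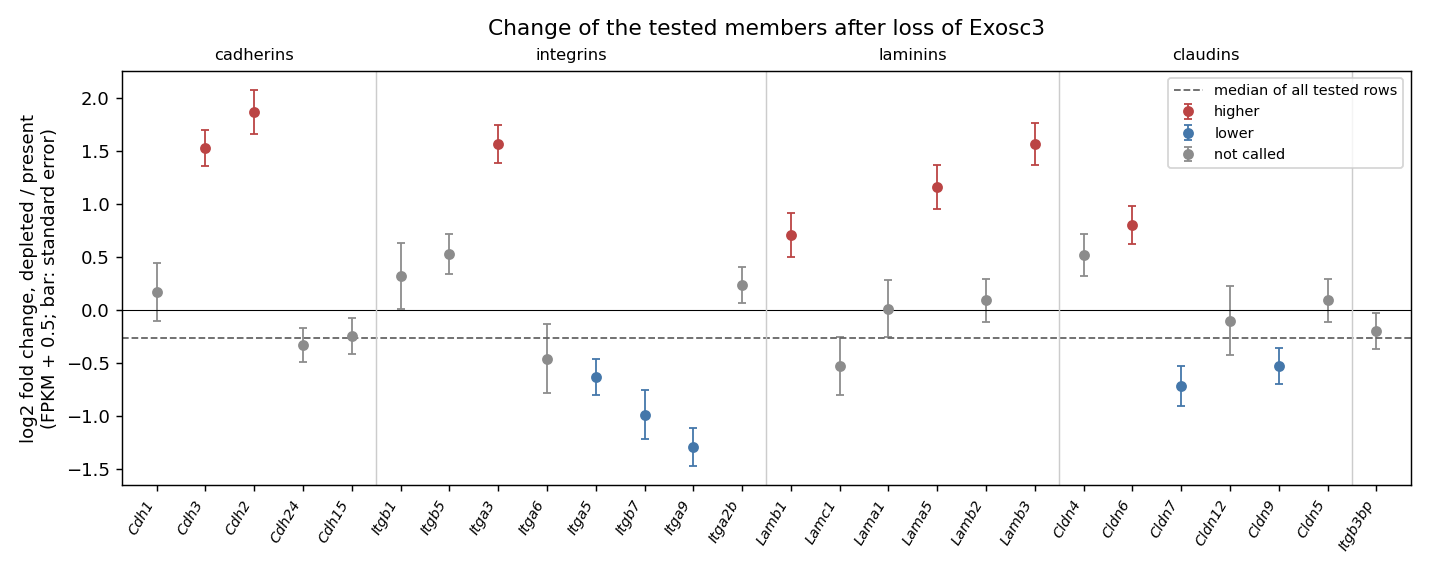
Log2 difference, Exosc3-depleted over Exosc3-present, of each tested member on the log2(FPKM + 0.5) scale, with its standard error from limma (2 libraries a group) and colours for the call. The dashed line marks the median of all tested rows (-0.27); all 7 higher members lie above 0.7, and the 14 grey members lie between -0.53 and 0.53.

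Among the cadherins, N-cadherin (Cdh2) and P-cadherin (Cdh3) rose after loss of Exosc3, and the level of E-cadherin (Cdh1), the cadherin of the embryonic stem cell colony, did not differ beyond the spread of the libraries. Cdh3 read 13.8 and 16.1 FPKM in Exosc3-present 1 and 2, and 43.5 and 44.5 in Exosc3-depleted 1 and 2. Both depleted values were above both present ones with little spread in either pair, a 2.94-fold difference of means (log2 1.53, SE 0.17, limma adjusted p = 0.000941; 1.80 above the median row). Cdh2, the cadherin of neural and mesenchymal cells, read 0.202 and 0.148 FPKM with Exosc3 and 1.57 and 2.44 without. It started from 57 and 38 fragments and reached 278 and 476, so the groups were far apart at a low level, with means 11.5-fold apart (log2 1.87, SE 0.21, limma adjusted p = 0.000872). The Cdh3 call held in every alternative. Cdh2 passed the filter only through its Exosc3-depleted values (mean 0.175 FPKM with Exosc3, under 0.5), so it had to differ to be tested, and its count among the higher members is no support; with the filter on the Exosc3-present libraries it was not tested.

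Cdh1 was the highest cadherin, at 59.6 and 66.3 FPKM with Exosc3, and at 53.9 and 93.4 without. The Exosc3-depleted libraries lay on either side of the Exosc3-present ones, and the difference did not pass (log2 0.17, SE 0.27, limma adjusted p = 0.627). Without Exosc3-depleted 1 it was 0.57 (limma adjusted p = 0.00593) and without Exosc3-depleted 2 it was -0.22 (0.196), so its direction depends on which library is kept; with the GC trend removed from each library it was 0.30 (0.289). The ratio of Cdh3 to Cdh1 within a library, which dividing a library by 1 factor leaves as it is (quantile normalization does not), was 0.232 and 0.243 with Exosc3 and 0.807 and 0.476 without. Cdh1 and Cdh3 are adjacent coding genes on chromosome 8 (RefSeq, GRCm38.p6). The 2 remaining tested cadherins, the type II cadherin Cdh24 (1.07 ± 0.0378 against 0.756 ± 0.0193 FPKM) and the muscle cadherin Cdh15 (0.648 ± 0.0743 against 0.471 ± 0.144 FPKM; SD, n = 2 in each group), did not pass; without Exosc3-depleted 1 alone they were called lower, at log2 -0.34 (limma adjusted p = 0.0345) and -0.40 (0.0154). Over all 21 cadherins the summed level was 76.2 and 85.3 FPKM with Exosc3 and 102 and 143 without. Cdh1 made up 78.3% and 77.7% of that sum in the Exosc3-present libraries and 52.7% and 65.2% in the Exosc3-depleted ones, while Cdh3 went from 18.1% and 18.9% to 42.6% and 31%.

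Among the integrin α subunits, the laminin receptor subunit α3 (Itga3) rose, the fibronectin receptor subunit α5 (Itga5) and α9 (Itga9), which binds tenascin and osteopontin among other ligands, fell, and α6 (Itga6), the other laminin-binding subunit with a row, did not pass. Itga3 read 7.51 and 8.52 FPKM with Exosc3, and 26.2 and 23.4 without. The groups were 3.09-fold apart, with each pair close together (log2 1.57, SE 0.18, limma adjusted p = 0.000981; 1.84 above the median row), and the call held in every alternative. Itga9 read 2.69 in both Exosc3-present libraries, and 0.716 and 0.885 FPKM in the Exosc3-depleted ones, which stood on 191 and 260 fragments. That is 3.36-fold lower (log2 -1.30, SE 0.18, limma adjusted p = 0.00177), and Itga9 was the 1 member of the 5 lower ones to stay called in every alternative in which it was tested.

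Itga5 read 12 and 12.4 FPKM with Exosc3, and 7.85 and 7.53 without. The groups did not overlap and differed 1.59-fold (log2 -0.63, SE 0.17, limma adjusted p = 0.0238; -0.37 from the median row). That call was lost under the 3 other scalings (log2 -0.34 to -0.31, lowest adjusted p 0.17 in limma) and without Exosc3-present 1 (-0.65, adjusted p = 0.278) or 2 (-0.61, 0.332).

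Itga6 was split by the Exosc3-depleted libraries: it read 13.8 and 15.1 FPKM with Exosc3, and 7.11 and 15.1 without. Only Exosc3-depleted 1 stood below the others, and the log2 difference was -0.46 (SE 0.33, limma adjusted p = 0.296). Without Exosc3-depleted 2 it was -0.98 (0.00012), without Exosc3-depleted 1 it was 0.06 (0.723), and with the GC trend removed -0.35 (0.26). Within each library, the ratio of Itga3 to Itga6 was 0.544 and 0.563 with Exosc3 and 3.68 and 1.55 without. The 8 α subunits that the rule found summed to 36.9 and 39.7 FPKM with Exosc3 and 42.9 and 48.2 without. Subunits named without a digit, such as αV (Itgav), are not in that sum. Itga3 held 20.4% and 21.5% of it in the Exosc3-present libraries and 61% and 48.5% in the Exosc3-depleted ones. Itga2b, the platelet subunit αIIb, stood at 0.804 ± 0.0621 against 1.04 ± 0.186 FPKM (SD, n = 2 each) and did not pass; without Exosc3-depleted 1 it was called higher (log2 0.36, limma adjusted p = 0.0293).

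Among the β subunits, β7 (Itgb7), the leukocyte-associated partner of α4 and αE, fell, and β1 (Itgb1), the common partner of α3, α5, α6 and α9, did not pass. Itgb7 read 12.3 and 13.3 FPKM with Exosc3, and 7.66 and 4.95 without. Both depleted values were lower, by 2.03-fold in the means (log2 -0.99, SE 0.23, limma adjusted p = 0.0142). The call was lost under the 3 other scalings (log2 -0.72 to -0.67; lowest adjusted p 0.068 in limma) and without Exosc3-present 1 (-1.05, 0.0593) or 2 (-0.94, 0.104).

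Itgb1, the highest β subunit by the mean of the 4 libraries (18.6 FPKM, against 17.5 for Itgb5, which was above it in Exosc3-depleted 1), read 14.6 and 17.5 FPKM with Exosc3, and 14.3 and 28 without. Exosc3-depleted 2 was the highest library and Exosc3-depleted 1 the lowest, so the groups overlapped (log2 0.32, SE 0.31, limma adjusted p = 0.445). Without Exosc3-depleted 1 the difference was 0.79 (0.00101), without Exosc3-depleted 2 it was -0.16 (0.377), and with the GC trend removed 0.25 (0.3). For the vitronectin receptor subunit β5 (Itgb5) the values were 13.5 and 15 FPKM with Exosc3, and 23 and 18.7 without. Both depleted values were above both present ones (1.46-fold), but the difference stopped short of the threshold (log2 0.53, SE 0.19, limma adjusted p = 0.0594). Itgb5 was called higher under the 3 other scalings (log2 0.83 to 0.86; highest adjusted p 0.0187 in limma), with the GC trend removed (0.54, 0.0107), and without Exosc3-depleted 1 (0.38, 0.0386) or 2 (0.67, 0.00161). Itgb7 held 30.1% and 28.6% of the summed β subunit level with Exosc3, and 16.7% and 9.46% without, while its ratio to Itgb1 went from 0.842 and 0.755 to 0.535 and 0.176. The ratio of Itgb5 to Itgb1 was 0.922 and 0.856 with Exosc3 and 1.61 and 0.666 without, on both sides of the Exosc3-present values. Itgb3bp, which is no subunit, stood at 0.596 ± 0.142 against 0.455 ± 0.0892 FPKM (SD, n = 2 each) and did not pass.

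Of the 6 tested laminin chains, 3 rose and 0 fell: the α5 chain (Lama5), and the β1 and β3 chains (Lamb1, Lamb3). The α1 and γ1 chains (Lama1, Lamc1), partners of β1 in laminin-111, and β2 (Lamb2) did not pass, and at an unadjusted p under 0.05 the count of lower chains was also 0 in limma, and limma-voom called 0 lower. With the replicate number added to the limma model as a block, Lamc1 was called lower. Lama5 read 10.1 and 11.8 FPKM with Exosc3, and 28.6 and 21.6 without. The groups were clear of each other at 2.3-fold (log2 1.16, SE 0.21, limma adjusted p = 0.00491; 1.42 above the median row), and the call held in every alternative. Lamb3, the β chain of laminin-332 in epithelial attachment, read 0.867 and 1.05 FPKM with Exosc3, and 4.26 and 3.41 without. It was lowest of the tested chains in both groups, and the means were 4-fold apart (log2 1.57, SE 0.20, limma adjusted p = 0.00133), again in every alternative.

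Lamb1, the highest laminin chain on average, read 23.8 and 33.5 FPKM with Exosc3, and 45 and 48.4 without. The depleted values were both higher, by 1.63-fold, although the present pair was itself spread (log2 0.71, SE 0.21, limma adjusted p = 0.0301). The call was lost without Exosc3-present 1 (0.47, 0.393) or 2 (0.96, 0.0543), and with no filter on low values (0.71, 0.057). Lamc1 read 35.9 and 47.6 FPKM with Exosc3, and 22.4 and 36.3 without. The groups overlapped, since Exosc3-depleted 2 was level with Exosc3-present 1 (log2 -0.53, SE 0.27, limma adjusted p = 0.151). Without Exosc3-depleted 2 it was called lower (-0.87, 0.00105), without Exosc3-depleted 1 the difference was -0.19 (0.373), and with the GC trend removed -0.44 (0.175).

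Lama1 was at 18.0 ± 3.89 FPKM with Exosc3 and at 18.3 ± 5.97 without (SD, n = 2 each), a log2 difference of 0.01 (SE 0.27), and Lamb2 at 5.86 ± 0.745 and 6.24 ± 0.653 (log2 0.09, SE 0.20). For both, the value turned negative when single libraries were left out (lowest -0.32 for Lama1 and -0.03 for Lamb2). Within each library the ratio of Lamb1 to Lamc1 was 0.663 and 0.704 with Exosc3 and 2.01 and 1.33 without, and that of Lama5 to Lama1 0.663 and 0.568 against 2.03 and 0.96. Lama1 to Lamc1 was 0.424 and 0.435 with Exosc3 and 0.63 and 0.621 without. All 3 of these ratios were higher in both Exosc3-depleted libraries, but with 2 libraries against 2 an exact permutation test cannot go below p = 0.333, and the pairs were chosen after their values were seen.

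Among the claudins, claudin-6 (Cldn6), which marks early embryonic epithelium, rose, and claudin-7 (Cldn7) and claudin-9 (Cldn9) fell. Cldn6 read 20.2 and 20.8 FPKM with Exosc3, and 39.8 and 32.6 without. All 4 values kept the groups apart at 1.77-fold (log2 0.80, SE 0.18, limma adjusted p = 0.0117; 1.07 above the median row). Without Exosc3-present 1 the call was lost at a like size (0.78, 0.132), as it was without Exosc3-present 2 (0.82, 0.118). Cldn7, common in epithelia, read 11.5 FPKM in both Exosc3-present libraries, and 7.63 and 6.02 in the others. Both depleted values were lower, by 1.68-fold (log2 -0.72, SE 0.19, limma adjusted p = 0.0226). Cldn9 stood at 1.5 ± 0.117 FPKM with Exosc3 and 0.887 ± 0.11 without (SD, n = 2 each), 1.69-fold lower on 53 and 49 fragments in the depleted libraries (log2 -0.53, SE 0.17, limma adjusted p = 0.0423).

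Both lower calls were lost under the 3 other scalings (Cldn7 -0.43 to -0.39; Cldn9 -0.46 to -0.29) and without Exosc3-present 1 (Cldn7 -0.72, adjusted p = 0.229; Cldn9 -0.47, 0.377) or 2 (Cldn7 -0.72, 0.245; Cldn9 -0.59, 0.276), all in limma; that of Cldn9 was also lost with no filter (adjusted p = 0.0802). Within each library the ratio of Cldn6 to Cldn7 was 1.76 and 1.81 with Exosc3 and 5.22 and 5.41 without. Cldn6 and Cldn9 are adjacent coding genes on chromosome 17 (RefSeq, GRCm38.p6), and their ratio was 12.7 and 14.7 with Exosc3 and 41.3 and 40.3 without. Cldn6 was called higher and Cldn7 and Cldn9 lower, so the shift of both ratios follows from those calls. As with the laminins, the cadherin, integrin and claudin pairs were chosen after their values were seen.

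Cldn4, a claudin of sodium-tight epithelia, was the highest claudin, at 44.9 and 40.6 FPKM with Exosc3, and 71.6 and 53 without. Both depleted values were above both present ones (1.46-fold), but the difference did not pass (log2 0.52, SE 0.20, limma adjusted p = 0.0716). It was called higher under the 3 other scalings (0.84 to 0.93, highest adjusted p 0.029 in limma), with the GC trend removed (0.54, 0.00739) and without Exosc3-depleted 2 (0.74, 0.000899). The endothelial claudin Cldn5 (1.09 ± 0.178 against 1.2 ± 0.319 FPKM) and Cldn12 (2.36 ± 0.299 against 2.34 ± 1.35 FPKM; SD, n = 2 each) did not pass. Cldn12 was called lower without Exosc3-depleted 2 (log2 -0.60, limma adjusted p = 0.0039) and higher without Exosc3-depleted 1 (0.41, 0.0304), so the 2 libraries gave opposite answers. Summed over the 21 claudins the level was 81.7 and 78.7 FPKM with Exosc3 and 123 and 97.1 without, of which Cldn7 held 14% and 14.6% against 6.2% and 6.2%.

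**Figure D4:**
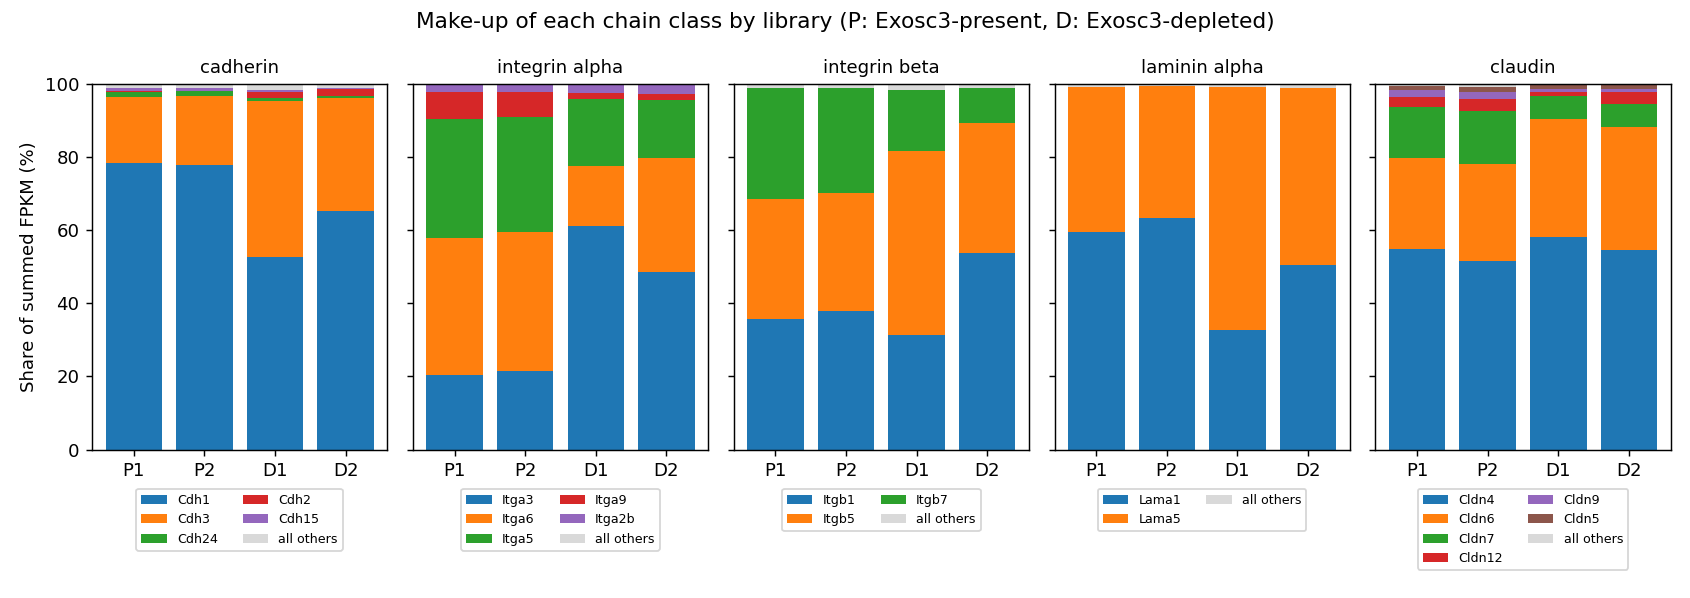
Share of the summed FPKM in percent that each gene holds within the cadherins, integrin α, integrin β, laminin α chains and claudins, in Exosc3-present 1 and 2 (P1, P2) and Exosc3-depleted 1 and 2 (D1, D2). Integrin α covers only the subunits that the rule found, without those named without a digit. The 2 present libraries have nearly the same make-up, whereas Cdh3, Itga3 and Lama5 take larger shares in both depleted libraries, by different amounts in D1 and D2.

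Below the filter lay 44 members, the highest being the GPI-anchored T-cadherin Cdh13 (mean 0.451 FPKM), Itgb1bp2 (0.337) and the integrin subunit Itgb3 (0.32). At 0 in every library were Cdh17, Cdh19, Cldn13, Cldn16, Cldn17, Cldn22, Cldn24 and Itgb2l; a floor of 3 fragments on a transcript of 1 kb would be 0.0493 to 0.0787 FPKM, counting error only, so low expression below that was not detectable. A limma-voom fit to the recovered fragments, added after many members were seen to lie under the filter, covered 24 of the 44 (at least 10 fragments over the 4 libraries). It called 8 higher and 4 lower, against 22.0% higher and 15.2% lower of all 3666 rows under the filter that it covered. Of those called, Cdh13, Cdh6 and Cdh5 had under 10 fragments in the Exosc3-present libraries together, and Cdh22 and Cldn19 in the Exosc3-depleted ones. They reached the minimum only with the group where they were higher, so their place in the counts is no support. By family these were 5 cadherins higher and 2 lower of 10, 1 integrin higher and 1 lower of 4, 2 laminins higher and 0 lower of 4, and 0 claudins higher and 1 lower of 5; Itgb1bp2, the remaining 1, did not pass. Of the low members, those other than Cdh13, Itgb1bp2 and Itgb3 were picked for naming after their values were seen.

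Cdh13 went from 3 and 5 fragments with Exosc3 to 83 and 76 without (0.0215 and 0.0395 against 0.951 and 0.791 FPKM). It was nearly empty in the Exosc3-present libraries and reached the level of tested genes in the others (log2 4.73, SE 0.50, limma-voom adjusted p = 0.000437). The leukocyte integrin subunit β2 (Itgb2) went from 6 and 6 fragments to 65 and 48 (log2 3.65, SE 0.48, limma-voom adjusted p = 0.000997), and Lamc3, the γ3 chain, from 14 and 15 to 63 and 53 (log2 2.5, SE 0.36, adjusted p = 0.00151). Higher on fewer fragments were Cdh6 (2 and 1 against 8 and 17) and the endothelial cadherin Cdh5 (1 and 1 against 6 and 7). Cdh20, Cdh11 and Lama3 rose by 1.86, 1.31 and 0.90 on the log2 scale (limma-voom adjusted p = 0.0133, 0.0102 and 0.0445). In limma with no filter, Lama3 was not called (adjusted p = 0.117). In the other direction, Cdh22 went from 55 and 51 fragments to 1 and 1 (limma-voom adjusted p = 0.00108). Itgb3, the vitronectin receptor β subunit, went from 178 and 173 to 21 and 33 (log2 -2.17, SE 0.30, adjusted p = 0.00119). Cldn19 (19 and 19 against 4 and 2) and Cdh4 (139 and 114 against 40 and 36) were also lower. In each of these 12 genes both Exosc3-depleted FPKM values lay on one side of both Exosc3-present ones. The genes were chosen by their calls in the same 4 libraries, so this separation adds no support.

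**Figure D5:**
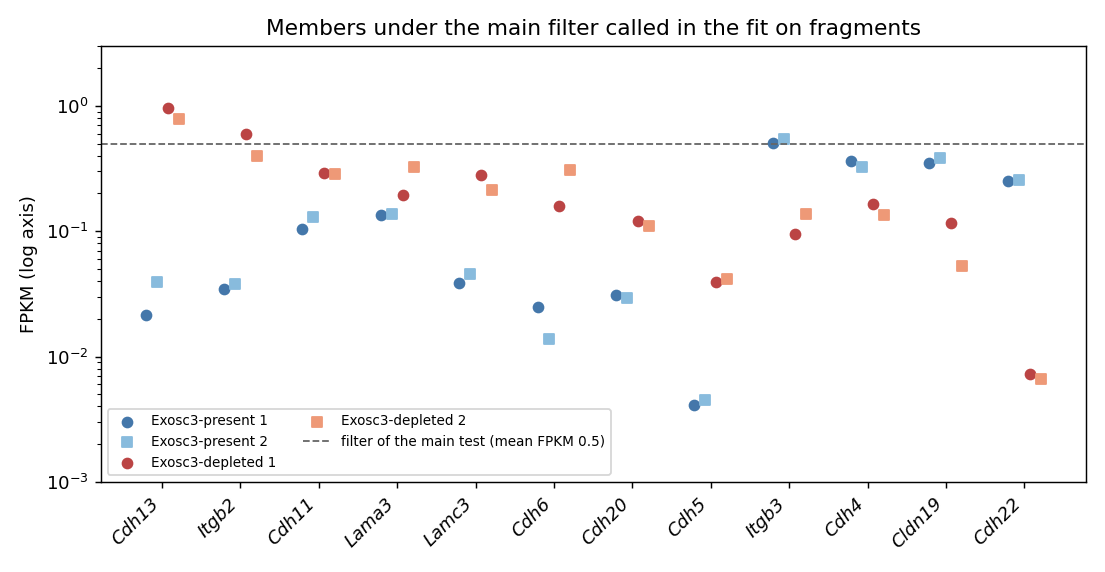
FPKM (log axis) in each of the 4 libraries for the 12 members under the filter that the limma-voom fit on recovered fragments called, with the filter of 0.5 FPKM on the mean as a dashed line. Cdh13 and Itgb2 are the highest of the 8 higher genes without Exosc3, and Cdh22 falls from near 0.25 FPKM to about 0.007.

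The other genes of these structures changed in both directions, and the counts are to be read against the 12.6% of all tested rows that were higher and the 30.1% that were lower. Of the adherens junction partners (9 of 14 with a row, 9 tested), 1 was higher and 1 lower, with a median log2 difference of -0.14 against -0.27 for all tested rows: the actin-binding Ablim1 rose by 0.83 (limma adjusted p = 0.0424), and nectin-1 (Pvrl1) fell by 0.94 (0.00755). Ablim1, at 0.265 FPKM with Exosc3, passed the filter only through its Exosc3-depleted values. With the filter on the Exosc3-present libraries, 8 partners were tested, 0 higher and 1 lower. The catenin Ctnnb1, which links cadherins to actin through α-catenin, was the highest of them, at 97.8 ± 7 FPKM with Exosc3 and 83.5 ± 30.4 without (SD, n = 2 each), and did not pass. In the desmosome list (8 tested of 11) 2 rose and 1 fell, with a median of -0.03. Perp, a desmosomal membrane protein and p53 target, rose from 3.19 ± 0.0956 to 48.4 ± 16.3 FPKM (log2 3.69, limma adjusted p = 0.000253), Pkp3, plakophilin 3, rose by 0.79 (0.0199), and the desmosomal cadherin Dsg2 fell by 1.12 (0.00743). Tight junction partners (16 tested of 20) had 1 higher and 4 lower and a median of -0.10 (3 and 3, 3 and 3, and 2 and 2 under median-of-ratios, quantile and no-top-50 scaling): the adhesion molecule Jam2 fell from 35.5 ± 0.406 to 13.2 ± 0.68 FPKM (log2 -1.39, limma adjusted p = 0.00117), and cingulin (Cgn) and its paralogue Cgnl1 fell by 1.55 and 1.17. Of these named calls, Perp, Jam2 and Cgn held in every alternative. Single libraries ended others: without Exosc3-present 1, Pvrl1 was -0.90 (limma adjusted p = 0.121), Pkp3 0.81 (0.17) and Ablim1 0.80 (0.0523), and without Exosc3-present 2, Pvrl1 was -0.97 (0.1), Pkp3 0.76 (0.214) and Cgnl1 -1.04 (0.0635). Scaling without the 50 highest rows ended the calls of Dsg2 (-0.84, 0.0544), Cgnl1 (-0.89, 0.0991) and Ablim1 (adjusted p = 0.0698).

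The integrin adhesion complex (17 tested of 25) had 2 higher and 6 lower, near the 12.6% and 30.1% of all tested rows, and a median of -0.16 (5 and 4, 6 and 4, and 5 and 3 under median-of-ratios, quantile and no-top-50 scaling): kindlin-1 (Fermt1) rose by 1.97 (limma adjusted p = 0.000809), and tensin 1 (Tns1) and Kank2 fell by 1.32 and 1.34. Filamin A (Flna), the highest, was at 66.8 ± 8.58 and 72.9 ± 19 FPKM (SD, n = 2 each). Of the integrin subunits named without a digit, 2 of 6 were tested: the αV subunit (Itgav), which pairs with β1, β3 and β5, rose from 1.05 ± 0.0805 to 3.36 ± 1.54 FPKM (log2 1.26, limma adjusted p = 0.012), and the leukocyte subunit Itgal fell by 1.08 (0.00326). The laminin partners and receptors (9 tested of 17) had 5 higher and 2 lower, and a median of 0.61 (5 and 1, 7 and 1, and 7 and 0 under median-of-ratios, quantile and no-top-50 scaling). Leading the higher genes were the basement membrane collagens Col4a2 (5.08 ± 0.931 to 25.8 ± 2.97 FPKM, limma adjusted p = 0.000465) and Col4a1 (9.76 ± 1.87 to 39.0 ± 1.23, 0.000613). Perlecan (Hspg2) followed, from 14.2 ± 1.44 to 42.3 ± 5.44 (0.00118). The lower ones were Dag1 (15.2 ± 1.61 to 8.56 ± 1.29, 0.0168) and Nid1 (7.87 ± 1.1 to 3.58 ± 1.3, 0.0164). Dag1 lost its call under all 3 scalings, and Nid1 under the no-top-50 one. The integrin ligands (8 tested of 16) had 3 higher and 1 lower: Cyr61 rose from 1.73 ± 0.182 to 84.8 ± 10.5 FPKM (log2 5.26, limma adjusted p = 0.000111), Thbs1, thrombospondin 1, from 0.0367 ± 0.0122 to 4.64 ± 2.12 (3.20, 0.000437), and osteopontin (Spp1), a ligand of α9 and αV integrins, fell from 49.1 ± 8.51 to 14.7 ± 1.72 (-1.70, 0.00105; n = 2 each). Among 5 tested repressors and keepers of the epithelial state, 2 were higher and 2 lower. Twist1, a repressor of Cdh1, rose by 1.17 to 1.17 ± 0.416 FPKM (limma adjusted p = 0.00429), and the splicing regulator Esrp1 fell by 1.10 (0.00603). Esrp2 rose by 0.71 (0.0187), and Tcf3, the highest of the list, fell by 0.79 (0.0103). Neither of these last calls held in every alternative, and Tcf3 lost its call under the 3 other scalings (-0.48 to -0.45). With the filter on the Exosc3-present libraries, 4 of the list were tested (not Twist1), 1 higher and 2 lower. Of 6 tested genes of the other cadherin superfamily, 1 (Pcdh1, by 0.59) rose and 1 (Clstn3, by 0.77) fell, with a median of -0.20. The named calls of Tns1, Kank2, Itgav, Itgal, Col4a1, Col4a2, Hspg2, Cyr61 and Spp1 held in every alternative that tested them. Fermt1, Thbs1 and Twist1, at 0.185, 0.0367 and 0.233 FPKM with Exosc3, passed the filter only through their Exosc3-depleted values, as did Npnt (0.209), the other higher ligand. Tns1 and Itgal, at 0.288 and 0.364 FPKM without Exosc3, passed it only through their Exosc3-present values. With the filter on the Exosc3-present libraries, 5 ligands were tested, 1 higher and 1 lower. Esrp1 lost its call without Exosc3-present 2 (-1.06, limma adjusted p = 0.0713), Pcdh1 and Clstn3 without Exosc3-present 1 (0.53, 0.367; -0.84, 0.167) or 2 (0.64, 0.27; -0.71, 0.272), and Clstn3 under the 3 other scalings (-0.52 to -0.46).

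Promoters are shown for the 4 members whose calls held in every alternative and that had a RefSeq entry (GRCm38.p6), Itga3, Lama5 and Lamb3, which rose, and Itga9, which fell, so that the start regions of genes that moved can be read side by side. Of the 70 members 47 had an entry, and 19 of the 26 tested ones did (not Cdh1, Cdh2, Cdh3, Cldn9, Itga6, Lama1 and Lamc1). Each run holds 250 bases before the most upstream start and 50 after it, 5′ to 3′ on the gene's strand, and capitals mark matches on either strand to the motifs searched: CAGGTG (the E-box of Snail and ZEB factors), TGANTCA (AP-1), GGAATG (TEAD), GGGCGG, the Sp1 element, and TATAAA of the core promoter.
Itga3, chr11:95076665-95076964, minus strand: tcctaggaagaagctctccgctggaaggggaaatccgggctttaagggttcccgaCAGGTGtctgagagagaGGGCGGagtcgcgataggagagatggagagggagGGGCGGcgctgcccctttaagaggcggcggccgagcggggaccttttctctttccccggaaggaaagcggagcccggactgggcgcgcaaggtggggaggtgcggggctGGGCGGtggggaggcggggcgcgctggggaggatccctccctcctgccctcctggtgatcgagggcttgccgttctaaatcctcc
Lama5, chr2:180225810-180226109, minus strand: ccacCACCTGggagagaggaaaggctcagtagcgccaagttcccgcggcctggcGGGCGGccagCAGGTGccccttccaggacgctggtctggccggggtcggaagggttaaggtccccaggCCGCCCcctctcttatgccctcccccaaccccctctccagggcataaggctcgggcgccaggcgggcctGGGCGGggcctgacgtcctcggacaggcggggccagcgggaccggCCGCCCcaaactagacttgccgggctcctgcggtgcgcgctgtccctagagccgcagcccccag
Lamb3, chr1:193301744-193302043, plus strand: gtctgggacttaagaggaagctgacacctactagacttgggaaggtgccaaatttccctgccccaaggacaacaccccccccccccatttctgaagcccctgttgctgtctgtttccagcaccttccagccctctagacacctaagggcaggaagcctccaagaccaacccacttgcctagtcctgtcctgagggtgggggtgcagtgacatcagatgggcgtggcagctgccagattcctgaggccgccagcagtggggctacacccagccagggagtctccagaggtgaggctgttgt
Itga9, chr9:118711442-118711741, plus strand: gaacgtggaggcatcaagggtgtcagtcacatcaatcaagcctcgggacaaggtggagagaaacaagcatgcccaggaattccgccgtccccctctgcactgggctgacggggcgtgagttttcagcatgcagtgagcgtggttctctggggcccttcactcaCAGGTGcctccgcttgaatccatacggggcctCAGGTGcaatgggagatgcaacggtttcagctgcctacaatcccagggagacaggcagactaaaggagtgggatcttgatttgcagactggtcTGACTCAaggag

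The Itga3 window held 1 CAGGTG and 3 GGGCGG matches and the Lama5 window 2 and 4, the Lamb3 window held none of the 5 motifs, and the Itga9 window held 2 CAGGTG matches and 1 TGANTCA match. CAGGTG was found in 3 of the 5 higher members with an entry (Itga3, Lama5 and Cldn6), 1 of the 4 lower ones (Itga9) and 2 of the 10 not called (Itgb5 and Cldn4), against 20% of all 27025 promoter windows in the table. GGGCGG was found in 4 of 5 higher, 1 of 4 lower and 6 of 10 uncalled members (35.9% of all windows), GGAATG in 1, 1 and 1 (14.7%), TGANTCA in 0, 1 and 1 (7.92%) and TATAAA in 0 of the 19 (14.2%). No motif searched contains another, and a match here is a description of the window only.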

How the data were processed

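RNA-seq of 4 libraries (2 Exosc3-present, 2 Exosc3-depleted) was used. What the authors deposited is a single table with an FPKM value for each UCSC known gene and library, per the file headers. Per the submitters' processing notes, mm9 was the build, and STAR, Bowtie2, Picard, edgeR and bedtools were used; which of them gave the FPKM values, and with which strand setting, is not given in the sources used here. Libraries were stranded, per the labels' protocols; whether the counting used strand is not stated, so reads of overlapping antisense genes may be included.

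Rows with a mean of at least 0.5 FPKM over the 4 libraries (9336) entered limma 3.58.1 (in R 4.3.3) as log2(FPKM + 0.5), with the prior variance following mean level, with no covariate, two-sided, Benjamini-Hochberg adjusted over all tested rows, threshold 0.05. Log2 differences are on this scale, which understates changes of low genes; folds are ratios of mean FPKM. "Above the median row" means minus the median log2 difference of all tested rows (-0.27). The fits were tested on simulated data.

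FPKM spacing gave transcript lengths, per-million totals and whole fragments for all 15471 rows above 0 (100%, tolerance 0.004 of a fragment); limma-voom on these fragments called 1178 rows higher and 2745 lower. GC content came from the longest coding GENCODE transcript of each symbol, promoters and gene order from RefSeq (GRCm38.p6), both used by symbol only.

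Of the tested members, values in all 4 libraries are given for those called with a mean of at least 2 FPKM and for the 2 highest of each family (also for Cdh2, Itga9 and Itga6, chosen after their values were seen). From each partner list the 3 genes with the smallest p and the highest one could be named. Esrp2, Npnt, Dag1 and Nid1 were named beyond that, after their values were seen. Members, lists and settings were chosen with earlier results of these data known. Alternatives changed the pseudocount, the filter, the scaling, the trend, the block, the test, GC and each library in turn. The replicate numbers are in the titles only; the deviations of same-numbered libraries correlated at 0.244, over 2 pairs. Genes with no row under the symbols searched were not analysed here.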

Additional observations from a re-analysis of the deposited data

How the results depend on the processing

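Beside the reported setting, 17 alternatives were run, 2 of them added after the data were seen (limma-voom over all rows with at least 10 fragments, and removal of the GC trend). Exosc3 stayed called in all 17. Of the 7 higher members 5 (Cdh2, Cdh3, Itga3, Lama5, Lamb3) and of the 5 lower members 1 (Itga9) stayed called in each alternative that tested them; Cdh2 was not tested with the filter at 2 FPKM or that on the Exosc3-present libraries.

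Scaling bore on the lower calls. With median-of-ratios, quantile and no-top-50 scaling, rows lower numbered 1589, 1782 and 1324 (2806 as reported), members lower 1, 1 and 1, integrins higher 2, 2 and 2, integrins lower 1, 1 and 1, claudins higher 2, 2 and 2, and claudins lower 0, 0 and 0. Of the distinct partner genes, 18 were higher and 19 lower as reported, 28 higher with quantile scaling and 9 lower without the 50 highest rows. Cldn12 then turned positive (0.16, 0.06 and 0.19).

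With no filter, where 62 members were tested, members higher and lower numbered 14 and 8, cadherins 7 and 2, and integrins higher 3. With a filter at 2 FPKM, where 18 members were tested, rows higher numbered 667, members lower 3, cadherins higher 1 and claudins lower 1, and with the filter on the Exosc3-present libraries (26 members tested, without Cdh2) 823 rows were higher, 6 members higher and 6 lower, cadherins higher 1 and integrins lower 4 of 9. The limma-voom fit to rows with at least 10 fragments gave 1992 rows higher, members 15 higher and 9 lower, cadherins 7 and 2, integrins higher 2 and laminins higher 5. With the GC trend removed, integrins higher numbered 2 and claudins higher 2. With the replicate block, rows numbered 1431 higher and 3468 lower, members 9 and 6, integrins higher 2, laminins lower 1 (Lamc1) and claudins higher 2. The labels do not say that a number marks shared cultures.

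Leaving out each library in turn, with the lone library of a group assumed to vary like the other group, gave 668 to 2183 rows higher and 1082 to 4715 lower, members 5 to 12 higher and 1 to 8 lower, cadherins lower 0 to 2, integrins 1 to 4 higher and 1 to 4 lower, laminins lower 0 to 1, claudins 0 to 2 higher and 0 to 3 lower, and partner genes 11 to 26 higher and 8 to 33 lower. Without an Exosc3-present library members lower numbered 1, and without Exosc3-depleted 1 members higher numbered 12. The direction of uncalled members turned with the library left out: Cdh1 (-0.22 to 0.57), Itgb1 (-0.16 to 0.79), Itga6 (-0.98 to 0.06), Lama1 (-0.32 to 0.34), Lamb2 (-0.03 to 0.21), Cldn5 (-0.10 to 0.28) and Cldn12 (-0.60 to 0.41). Between them, Lama1 was also negative without Exosc3-present 1 (-0.21), Lamb2 without Exosc3-depleted 1 (-0.01), Cldn5 without Exosc3-present 1 (-0.02), and Cldn12 positive without Exosc3-present 2 (0.01). Apart from the filters, which change the genes tested, the cause was not tested. Depth limits the members below 0.5 FPKM most, and a gene that did not pass is not shown to be unchanged.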
